A study of Mus musculus with 6 samples.

Results

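The miR-221 and miR-222 pair was followed through small RNA sequencing of endothelial progenitor cells (EPCs) grown from mouse bone marrow. The pair comprises 4 mature microRNAs (miRNAs), one from each arm of the 2 hairpins, namely mmu-miR-221-3p, mmu-miR-221-5p, mmu-miR-222-3p and mmu-miR-222-5p. Its members were taken by name, and they make up 4 of the 1915 mature names in the count table, with 1 row each. Cells came from male C57BL/6J mice of wild type genotype, young adults when exposure began, that inhaled either concentrated ambient fine particulate matter (CAP, 3 libraries) or HEPA-filtered air (air, 3 libraries) on consecutive days over several weeks. Both groups were cultured for 12 days according to the labels. The comparison asked which miRNAs differed between EPCs of CAP-exposed and air-exposed mice. The mice of a group shared 1 cage, so exposure and cage cannot be told apart. The p-values measure the spread between these libraries.

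Each hairpin is cut into a short duplex, from which one strand, the guide, is kept in an Argonaute protein and pairs with target mRNAs through its seed, while the other strand, the passenger, is mostly degraded. The guides of this pair are the 3p arms, which share a seed and are made from one primary transcript. They are known to repress the stem cell factor receptor KIT and the cell cycle inhibitor p27 (gene Cdkn1b) in human cells. In human endothelial cells they have been linked to reduced KIT and less vessel-like growth, and in rat vascular smooth muscle cells to proliferation.

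The mature sequences are shown because the shared seed defines the pair as one family. They were read from RefSeq (GRCm38.p6), which held 3 of the 4 members. Capitals mark the seed, bases 2 to 8 counted from the 5′ end.

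mmu-miR-221-3p: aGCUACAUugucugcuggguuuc

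mmu-miR-222-3p: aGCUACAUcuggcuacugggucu

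mmu-miR-221-5p: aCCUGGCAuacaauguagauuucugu

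The guides of miR-221 and miR-222 were identical over their first 8 bases and at 11 of 23 positions without gaps. Beyond the seed they are therefore distinct sequences to which reads can be assigned. In the RefSeq table the seed GCUACAU occurred in only 1 other mouse miRNA, miR-1928 (chromosome 1, 74206562 to 74206578), which matched miR-221-3p over its first 10 bases. miR-1928 had 0, 1 and 0 reads in CAP replicates 1, 2 and 3 and 1, 0 and 0 reads in air replicates 1, 2 and 3. Reads of this seed thus came almost entirely from the pair.

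Both hairpins lie on the minus strand of chromosome X in GRCm38, the assembly that mm10 denotes. Mir222 (19146893 to 19146971) comes first in the direction of transcription and Mir221 (19146294 to 19146388) follows after a gap of 504 bases. The GENCODE annotation (release vM21) placed no other gene over them. The nearest gene was the noncoding Gm14636, 10009 bases upstream on the same strand. The hairpin sequences are shown to place the arms, with the mature sequences held by RefSeq in capitals.

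Mir222: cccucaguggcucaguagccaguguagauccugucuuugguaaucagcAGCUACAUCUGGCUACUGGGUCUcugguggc

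Mir221: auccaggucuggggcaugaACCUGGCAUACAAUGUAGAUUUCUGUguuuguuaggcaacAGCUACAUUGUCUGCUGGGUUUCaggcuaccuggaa

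**Figure D1:**
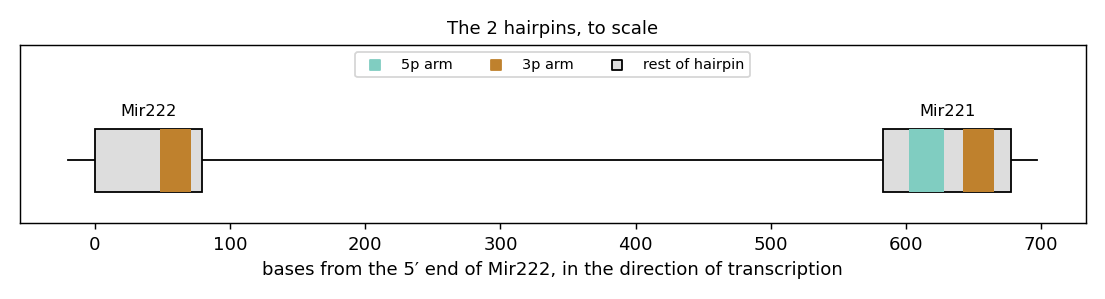
The 2 hairpins drawn to scale, with bases from the 5′ end of Mir222 on the horizontal axis. Colours mark the 5p and 3p arms and grey the rest of each hairpin; miR-222-5p is not drawn, and the hairpins are 504 bases apart.

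Sites that could pair with this seed were looked for as the letters ATGTAGC, on the sense strand, in mouse 3′ untranslated regions of GENCODE vM21, taking the transcript with the longest coding sequence of each gene. Of 21020 genes, 8.53% held the 7 letters and 3.20% held them followed by A, the base opposite the first base of the guides. The median region over these genes was 801 bases long, and longer regions have more room for a match. Kit, which encodes the receptor for stem cell factor, held 2 matches in 2177 bases, and Cdkn1b held 1 in 3439 bases. These windows are printed with the match in capitals, since Kit and Cdkn1b are the targets named above. A match is a description of the letters only, and mRNAs were not analysed here.

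Kit, chr5:75654980-75655005, plus strand: gatgggagatatATGTAGCAagacta

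Kit, chr5:75656511-75656536, plus strand: gtaaatattgaaATGTAGCAataatg

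Cdkn1b, chr6:134924419-134924444, plus strand: taaaagcattggATGTAGCAttgcgc

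Further genes that have been studied as targets, mostly in human cells, were searched in the same way. Cdkn1c, an inhibitor of the cell cycle like Cdkn1b, and Bbc3, which encodes the pro-apoptotic protein PUMA, held 1 match each. Ets1, an endothelial transcription factor, held 2, and the adhesion molecule gene Icam1 held 0. Their regions were 688 (Cdkn1c), 971 (Bbc3), 3395 (Ets1) and 871 (Icam1) bases long.

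The libraries held 19978586 to 25532775 counts, and 13831209 to 18107578 after keeping 1 row per mature name. Levels are given as CPM (counts-per-million) after scaling by trimmed mean of M-values (TMM), and were compared by edgeR's quasi-likelihood test over 677 miRNAs that passed its filter on low counts. All 4 members passed this filter. Markers of several cell types were present in these bulk cultures, in which fewer cells of a type and less RNA per cell cannot be told apart. Endothelial miR-126a (both arms tested) summed to 947 to 3675 CPM in CAP and 1953 to 5120 CPM in air. Both arms were lower in CAP (median log2 fold change −0.57, and −0.40 with upper-quartile scaling), with 0 at an unadjusted p under 0.05 by edgeR. The myeloid and haematopoietic list (miR-223-3p and both arms of miR-142a, 3 of 3 tested) summed to 59914 to 75148 CPM in CAP and 57169 to 70785 CPM in air. It thus far exceeded the endothelial list. All 3 were higher in CAP (median log2 fold change 0.12, and 0.26 with upper-quartile scaling), again with 0 at an unadjusted p under 0.05 by edgeR. Stromal and smooth muscle markers (4 of 4 tested) summed to 35667 to 51140 CPM in CAP and 47692 to 59320 CPM in air. Although these sums overlapped, all 4 stromal markers had lower levels in CAP (median log2 fold change −0.43, and −0.28 with upper-quartile scaling), 2 of them at an unadjusted p under 0.05 by edgeR and 0 after adjustment. The erythroid list (miR-451a and miR-144-3p) summed to at most 63.7 CPM in CAP and 21.9 CPM in air. None of these markers was at 0, and their part in the results that follow was not tested. The liver miRNA miR-122-5p reached 24731 CPM in CAP replicate 1 and 75.0 to 277 CPM elsewhere, and the members' fold changes, arm ratios, ratios to each other and summed level were also computed without each library in turn, this one included.

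The guides were abundant and moved little between the groups. Of the 677 miRNAs tested, miR-221-3p ranked 23rd by mean level and miR-222-3p ranked 72nd. miR-221-3p was at 10047, 9944 and 9223 CPM in CAP replicates 1, 2 and 3, against 11246, 10542 and 10033 CPM in air replicates 1, 2 and 3. The groups overlapped, since the highest CAP library stood just above the lowest air library. The mean was 9738 ± 449 CPM in CAP and 10607 ± 609 CPM in air (SD, n = 3 each).

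For miR-221-3p the log2 fold change was −0.12 with a standard error of 0.08 and an interval of −0.31 to 0.06 (95%), and it did not pass edgeR's test with Benjamini–Hochberg adjustment (adjusted p = 0.412). Without CAP replicate 1, the library with the high liver miRNA, it was −0.20. The sign of this small difference depended on the scaling. With upper-quartile scaling it was 0.02, in a fit where the median of all miRNAs shifted to 0.15 against 0.00 with TMM, so that relative to other miRNAs miR-221-3p was below the median in both.

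miR-222-3p leaned the other way. It was at 1246, 1398 and 1192 CPM in CAP replicates 1, 2 and 3, against 1203, 1115 and 1116 CPM in air replicates 1, 2 and 3. Here too the groups overlapped, with CAP replicate 3 between the air libraries and CAP replicate 2 the highest. The mean was 1279 ± 107 CPM in CAP and 1144 ± 50.4 CPM in air (SD, n = 3 each). The log2 fold change was 0.16 with a standard error of 0.10 and an interval of −0.08 to 0.40, which did not pass edgeR's test (adjusted p = 0.410). Without CAP replicate 2 the log2 fold change was 0.08.

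The passengers were far scarcer than their guides. miR-221-5p was at 93.0, 111 and 86.0 CPM in CAP replicates 1, 2 and 3, against 90.2, 83.7 and 92.8 CPM in air replicates 1, 2 and 3. Apart from CAP replicate 2 the values of the groups were interleaved. The log2 fold change was 0.12 with a standard error of 0.13 (edgeR adjusted p = 0.589), and it was −0.0057 without CAP replicate 2 and 0.05 without air replicate 2.

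miR-222-5p, the least abundant member, was the only one of the 4 whose CPM did not overlap between groups. It was at 40.0, 52.6 and 47.2 CPM in CAP replicates 1, 2 and 3, against 32.5, 33.3 and 28.3 CPM in air replicates 1, 2 and 3. These levels rest on 428 to 950 reads per library. The lowest CAP library stood above the highest air library, and CAP replicate 2 was again the highest. Across all miRNAs, 14.6% did not overlap and were higher in CAP, so 1 of 4 members is near what the table as a whole gave.

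For miR-222-5p the log2 fold change was 0.57 with a standard error of 0.14 and an interval of 0.24 to 0.91, or 1.49-fold. Its unadjusted p by edgeR was 0.00475, well under the looser 0.05 that 11.5% of miRNAs went below in this direction. After Benjamini–Hochberg adjustment over the 677 miRNAs it did not pass edgeR's test (adjusted p = 0.146), nor did any other miRNA (0.0% called, with 78 higher and 64 lower at an unadjusted p under 0.05).

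The call for miR-222-5p depended on the tool. With DESeq2 on all 1496 names with at least 1 count, of which only 619 were given an adjusted p, it passed (adjusted p = 0.0353). It was among 30 miRNAs called, or 2.01% of the 1496. With DESeq2 on names with at least 10 counts in total, an alternative chosen after seeing the data, it did not (adjusted p = 0.0624, 22 miRNAs called), nor did it by limma-voom (adjusted p = 0.137; 0 called, with 73 higher and 74 lower at an unadjusted p under 0.05). With 1 library left out at a time, DESeq2 gave an adjusted p of 0.00767, 0.0795 and 0.0347 without CAP replicates 1, 2 and 3, and of 0.102, 0.105 and 0.216 without air replicates 1, 2 and 3. Its fold change stayed above 0 in all of these fits.

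**Figure D2:**
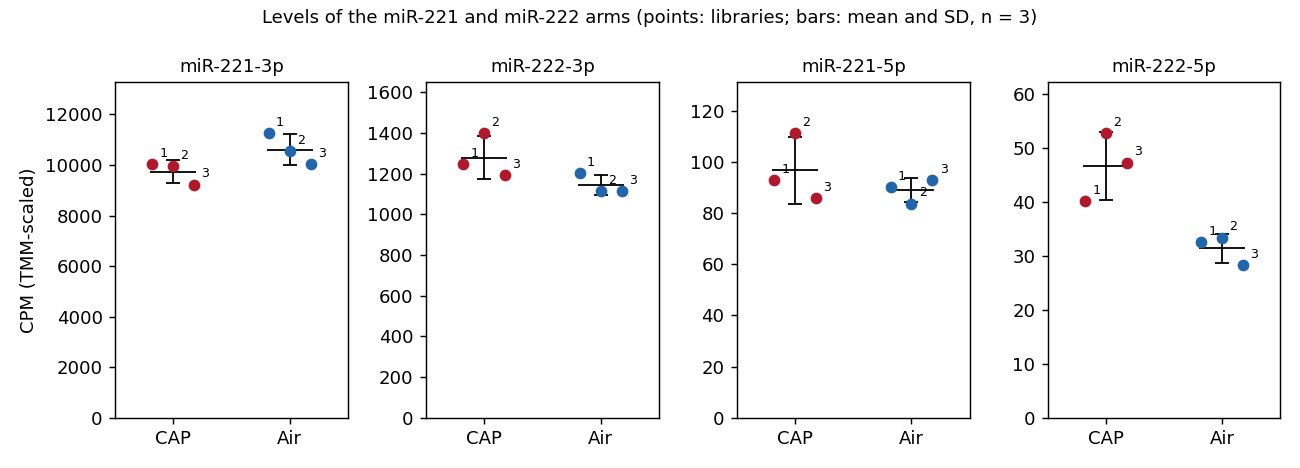
CPM after TMM scaling (vertical axes, each from 0) of the 4 members in CAP and air libraries. Points are libraries with their replicate numbers, and bars give mean and SD (n = 3); only for miR-222-5p, at 40.0 to 52.6 CPM in CAP and 28.3 to 33.3 CPM in air, do the groups not overlap.

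**Figure D3:**
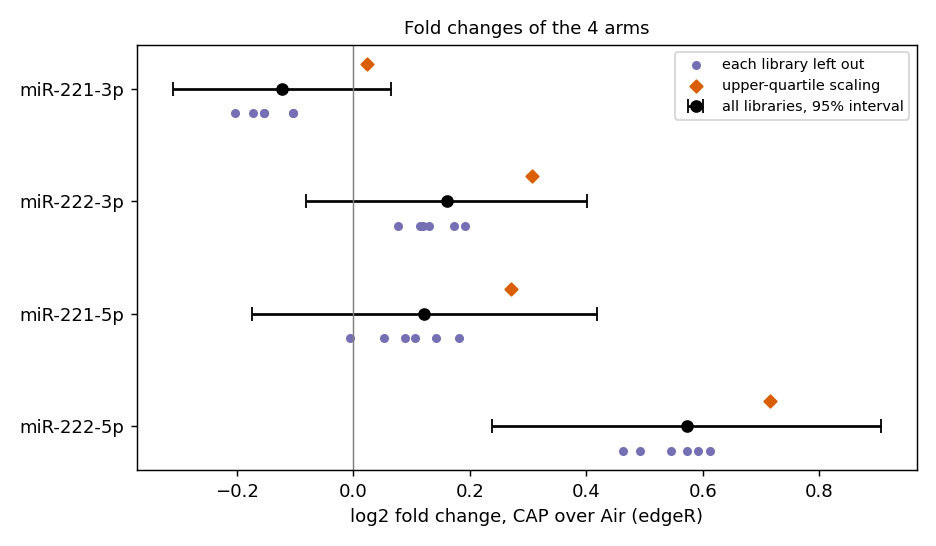
Log2 fold change of each member, CAP over air, by edgeR (horizontal axis), with all libraries and the 95% interval in black, each library left out in turn in purple and upper-quartile scaling in orange. The interval of miR-222-5p, 0.24 to 0.91, lies above 0, while those of the other 3 members include 0.

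The guide and passenger arms were then compared within each hairpin, a ratio that does not depend on how libraries are scaled. Of miR-221 reads the 5p arm took 0.917, 1.11 and 0.924% in CAP replicates 1, 2 and 3, against 0.795, 0.788 and 0.917% in air replicates 1, 2 and 3. The groups did not overlap, but only just. CAP replicate 1 and air replicate 3 had 95% Wilson intervals of 0.871 to 0.965% and 0.870 to 0.966%. These intervals cover at most counting error and nearly coincide, so these libraries cannot be told apart at this depth. The mean was 0.982 ± 0.107% in CAP and 0.833 ± 0.072% in air (SD, n = 3 each; exact two-sided permutation p = 0.1, the smallest that 3 against 3 allows).

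The miR-222 hairpin gave up more of its reads to the passenger, and the groups stood further apart. The 5p arm took 3.11, 3.63 and 3.81% of miR-222 reads in CAP replicates 1, 2 and 3, against 2.63, 2.90 and 2.47% in air replicates 1, 2 and 3. Put as guide reads per passenger read, this was 27.6 ± 3.08 in CAP and 36.6 ± 3.02 in air (SD, n = 3 each; exact two-sided permutation p = 0.1). The nearest libraries of the groups, CAP replicate 1 and air replicate 2, had Wilson intervals of 2.88 to 3.36% and 2.67 to 3.15%, which overlap.

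A passenger share of this kind was common to many hairpins. Among 196 precursor names with both arms tested, the median share of the minor arm was 7.06%, and 39 names had a lower share than miR-221 and 68 a lower share than miR-222. In 21.9% of the 196 names the minor arm's share was higher in CAP without overlap between groups, which both miR-221 and miR-222 showed. In another 32 names it was lower in CAP without overlap. Summed over all these names, the minor arms took 3.894 to 3.979% of reads in CAP and 3.982 to 4.136% in air. In each library the median share over the names was 5.91 to 6.60% in CAP and 7.30 to 7.48% in air. Both measures were thus lower in CAP without overlap, the first only just, unlike the shares of miR-221 and miR-222. Counted by name, the ratio of minor to major arm was higher in CAP in 104 of 196 names, with a median log2 change of 0.02 and, of the names called by the test of arm use that follows, 11 with a higher and 7 with a lower share.

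Whether the arms moved by different amounts was tested with edgeR's test of the arm by group term over the same 196 names. The 5p to 3p ratio changed by 0.41 on the log2 scale for miR-222, with a standard error of 0.12 (unadjusted p = 0.00542, adjusted p = 0.0532 by edgeR), which did not pass. For miR-221 it changed by 0.25 with a standard error of 0.11 (edgeR adjusted p = 0.172), and without CAP replicate 2 by 0.15. Of the 196 names 9.18% were called, and miR-222 ranked 20th by p. This fit treats the arms of a library as separate observations.

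The value of miR-222 lay so near the threshold that small choices moved it across. Its edgeR adjusted p was 0.0399 with DESeq2 size factors and 0.0289 without CAP replicate 1, and it ranged up to 0.355 with no filter on low counts, where 522 names were tested. Without air replicate 1 or 2 none of the names was called by edgeR, with 21 and 28 higher and 12 and 11 lower at an unadjusted p under 0.05.

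**Figure D4:**
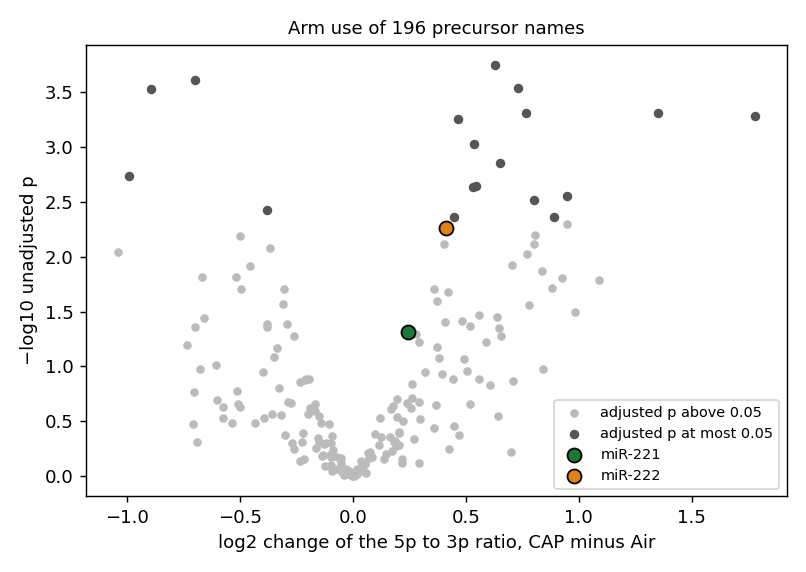
Log2 change of the 5p to 3p ratio, CAP minus air (horizontal axis), against −log10 of the unadjusted p (vertical axis) for 196 precursor names, 18 of which passed an adjusted p of 0.05 (dark grey). miR-222 (0.41) ranked 20th by p and lies just under the called names, and miR-221 (0.25) lies further down.

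The balance of the hairpins within the pair also differed between groups. There were 12.4, 14.1 and 12.9 reads of miR-222-3p per 100 reads of miR-221-3p in CAP replicates 1, 2 and 3, against 10.7, 10.6 and 11.1 in air replicates 1, 2 and 3. The air libraries lay close together and all CAP libraries stood above them. The log2 ratio was higher in CAP by 0.28 (exact two-sided permutation p = 0.1, the smallest possible), and by 0.23 to 0.32 with any library left out.

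The passengers showed the same order. Their ratio is fixed by the guide ratio and the arm ratios of both hairpins, so it is not a separate result. It was not set beside the ratios of other neighbouring passengers. There were 43.1, 47.3 and 54.9 reads of miR-222-5p per 100 reads of miR-221-5p in CAP replicates 1, 2 and 3, against 36.0, 39.8 and 30.5 in air replicates 1, 2 and 3. Their log2 ratio was higher in CAP by 0.45 (exact two-sided permutation p = 0.1). Reads of both arms of miR-222 together made up 11.9 ± 0.684% of the pair's reads in CAP and 9.91 ± 0.213% in air (SD, n = 3 each).

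A shift in ratio between neighbouring hairpins was not particular to this pair. The ratio of main arms was taken for 50 pairs of neighbouring precursors on the same strand, less than 1000 bases apart. The main arm was the more abundant of those held by RefSeq, so it need not be the more abundant arm of the hairpin. Main arms had to be distinct and both tested. The names miR-19b-3p and miR-92a-3p entered both as Mir19b-1 with Mir92-1 and as Mir92-2 with Mir19b-2. The ratio did not overlap between groups in 58.0% of these pairs. The median absolute change was 0.28, the same to 2 decimals as for miR-221 and miR-222, and 25 pairs changed more. This background was set up after the ratio of the pair had been seen.

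**Figure D5:**
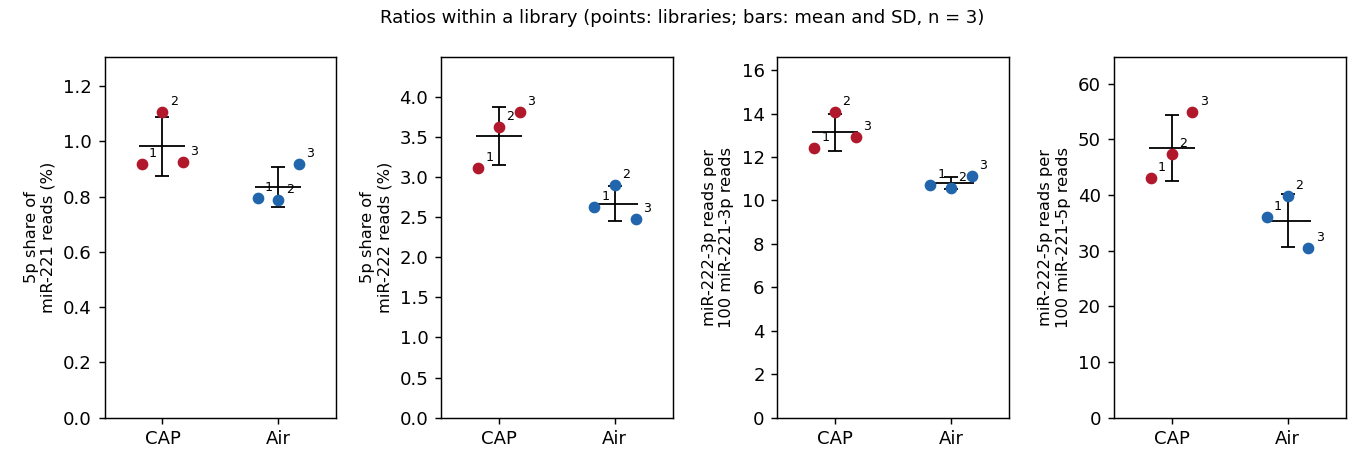
Ratios within a library in CAP and air libraries, namely the 5p share of miR-221 and of miR-222 reads (%) and the reads of miR-222 per 100 reads of miR-221 for the 3p and the 5p arm. Points are libraries with their replicate numbers, bars give mean and SD (n = 3), and in all 4 panels the CAP libraries lie above the air libraries, by the smallest margin in the 5p share of miR-221. The panels are not independent, since the ratio of the 5p arms follows from the other measures.

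Taken as a whole the pair was slightly lower in CAP with TMM scaling, but the groups overlapped and the direction depended on the scaling. Most of its reads came from miR-221-3p. miR-221-3p held 86.4 to 87.9% of the pair's reads in CAP and 89.0 to 89.5% in air. The summed level of the 4 members was 11426, 11506 and 10548 CPM in CAP replicates 1, 2 and 3, against 12571, 11773 and 11270 CPM in air replicates 1, 2 and 3. These overlapped (exact two-sided permutation p = 0.3), with a difference of −711 CPM. With DESeq2 size factors the difference was −720 CPM (p = 0.1 by the same permutation test, the smallest possible). With library totals only it was −903 CPM (permutation p = 0.4), and with upper-quartile scaling it turned to 456 CPM (permutation p = 0.7). With TMM scaling the difference was −1295 CPM without CAP replicate 1 and −1109 CPM without air replicate 3. It lay between −1001 and −549 CPM with another library left out.

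The profiles of the guides over the 6 libraries were set beside those of 352 miRNAs that averaged at least 10 CPM, as the root mean square difference of log2 CPM after centring each on its own mean. Nearest to miR-221-3p was miR-425-5p, at 0.03, against a median of 0.20 over all those compared. Next came miR-466a-3p and the names miR-466b-3p, miR-466c-3p and miR-466p-3p, each at 0.05, the last 3 of which held identical counts. Nearest to miR-222-3p was miR-15b-3p at 0.04, followed by miR-186-5p, miR-301b-3p, miR-421-3p and miR-25-3p at 0.05 to 0.07, against a median of 0.22. The guides themselves differed from each other by 0.15, and miR-222-3p lay nearer to the passenger miR-221-5p, at 0.07. All these profiles come from the same libraries and share their scaling.

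Other miRNAs of the same setting were counted by list. Of 33 angiogenesis-linked miRNAs, all tested, 13 had higher and 20 lower levels in CAP, with a median log2 fold change of −0.08 beside 0.00 over all miRNAs, of which 342 were higher and 335 lower. This median was 0.07 with upper-quartile scaling. The 3 with the smallest p were miR-214-3p (log2 fold change −1.02), which is also one of the stromal markers, miR-27b-3p (0.36) and miR-16-5p (0.28). Of 18 miRNAs of haematopoietic progenitors and myeloid cells, 14 had higher and 4 lower levels, with a median of 0.11, or 0.26 with upper-quartile scaling, and miR-181a-5p (−0.38), miR-155-5p (0.51) and miR-191-5p (0.30) had the smallest p. Of these lists 0 members passed edgeR's adjusted test, with 4 higher and 5 lower in the first and 2 higher and 1 lower in the second at an unadjusted p under 0.05. In size, the 0.57 of miR-222-5p was near the 0.51 of miR-155-5p, but a link between them was not tested. The guides of the pair changed less than any of these 6. Because the 6 were picked for their small p, the choice itself favoured this order.

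Chromosome X held 149 other mature names in the table, of which 54 were tested. There 17 had higher and 37 lower levels in CAP, 3 and 12 of them at an unadjusted p under 0.05 by edgeR, with a median of −0.15. With upper-quartile scaling this median was −0.01 while that of all miRNAs was 0.15. miR-450a-5p (−0.85), miR-450a-2-3p (−0.75) and miR-500-3p (−0.51) had the smallest p, and 0 passed the adjusted test. Among the members, only miR-221-3p (−0.12) was on the same side as most tested miRNAs of its chromosome. With upper-quartile scaling it was at 0.02. On the other side were miR-222-3p (0.16), miR-221-5p (0.12) and miR-222-5p (0.57), of which only miR-222-5p had a 95% interval that left out 0.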

How the data were processed

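Small RNA libraries of EPCs were compared, 3 from CAP-exposed and 3 from air-exposed mice, grouped by sample title. The authors deposited raw read counts per pair of mature miRNA and precursor. By the study's methods, Trimmomatic removed adapters, and mirDeep2 with bowtie placed reads on mm10 and quantified them against miRBase. Collapsing by molecular identifiers was not stated. The Wilson intervals take each read as independent, so they cover at most counting error and are too narrow if reads were not collapsed. The labels' culture time of 12 days differs from that in the methods.

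Where a name had several rows (83 names, no member among them), that of the highest total stood for it. Levels were fitted by edgeR 4.0.16 under R 4.3.3 (TMM, default filter, quasi-likelihood fit on group, Benjamini–Hochberg, adjusted p at most 0.05). Arm use was tested with edgeR's diffSpliceDGE, pairing arms of the same name. DESeq2 1.42.0 and limma-voom (limma 3.58.1) were alternatives. Single values were compared by exact permutation (scipy 1.17.1). Scripts were tested on simulated counts. Replicates differed by more than sampling noise (chi-square per degree of freedom 67.6 to 920).

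Members and lists were chosen with earlier results of these data known. Named besides the members were miRNAs of the same seed, the 5 nearest in profile to each guide, and the 3 of each list with the smallest p.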

Additional observations from a re-analysis of the deposited data

How the results depend on the processing

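Each member was refitted with other scalings, filters, row choices and tools and with each library left out. miR-222-3p and miR-222-5p kept their direction in all 24 alternatives, at 0.08 (without CAP replicate 2) to 0.31 and 0.46 to 0.72 on the log2 scale. miR-221-3p turned to 0.0228 with upper-quartile scaling. miR-221-5p turned to −0.0057 without CAP replicate 2 by edgeR and to −0.0040 by DESeq2, and was at up to 0.18 with another library left out. miR-222-5p, at 0.57, passed with DESeq2 at 0.56, and leaving out a library gave 0.46 to 0.67 over both tools, passing by DESeq2 without CAP replicate 1 (0.67) and without CAP replicate 3 (0.55). The change of the 5p to 3p ratio of miR-222 passed at 0.41 with DESeq2 size factors and ranged from 0.36 to 0.49 with a library left out. For the summed level the difference was −720 CPM with DESeq2 size factors and 456 CPM with upper-quartile scaling. Over all miRNAs, edgeR called 0, or 13 with no filter, against 30 by DESeq2 and 22 by DESeq2 on names with at least 10 counts, the last chosen after seeing the data. Leaving out a library gave 0 by edgeR. By DESeq2, added after seeing the data, it gave 48, 25 and 71 without CAP replicates 1, 2 and 3 and 10, 8 and 10 without air replicates 1, 2 and 3. For arm use 18 names were called, 10 with library totals only and 0 with no filter. Leaving out CAP replicates 1, 2 and 3 gave 26, 6 and 9, and leaving out air replicates 1, 2 and 3 gave 0, 0 and 2. Fits without a library had fewer samples, and some settings tested other sets of names. The cause of these differences was not tested.

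Whether the title numbers of the replicates pair a CAP with an air culture is not stated. The count columns number the cultures otherwise, with numbers above 3 in both groups, and the reason is not stated. Deviations from the group mean had r across miRNAs of 0.02, −0.02 and 0.14 for same-numbered libraries. Differently numbered libraries had r of −0.26 to 0.23, so these values cannot decide on a pairing. The replicate block below used the title numbers. With a replicate block the log2 fold change of miR-222-5p was 0.57 (edgeR adjusted p = 0.145) and the change in the 5p to 3p ratio of miR-222 was 0.41 (adjusted p = 0.0719), with 0 miRNAs and 14 names called. With 3 libraries a group, a single ratio could not reach an exact p below 0.1, and the passenger miR-222-5p rested on 428 to 950 reads a library.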
